A study of Mus musculus with 12 samples.

Results

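The postsynaptic density scaffold genes examined here were 10 Dlg, Dlgap and Shank genes of the count table, chosen by symbol from 23893 genes: Dlg1, Dlg2, Dlg3 and Dlg4, Dlgap1, Dlgap2 and Dlgap3, and Shank1, Shank2 and Shank3. The paralogs Dlg5 and Dlgap4 also have rows in the table. They are not among these 10 and are counted below with other genes of the postsynaptic density. All 10 were counted in every library, with 17 to 2912 counts per gene and library. Their products form the protein layers under the membrane of excitatory synapses. The DLG proteins (SAP97, PSD-93, SAP102 and PSD-95) sit nearest the membrane and bind the tails of NMDA receptors, of AMPA receptor partners and of adhesion molecules such as neuroligins. The DLGAP proteins (also named GKAP or SAPAP) bind the DLG proteins on their inner side and link them to the SHANK proteins, which in turn hold Homer and the actin cytoskeleton in the dendritic spine. DLG2, SHANK2 and SHANK3 are known as genes affected in autism and related disorders.

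Cortical neuron cultures were made from C57BL6 mouse embryos (E13.5-15.5) and sequenced as polyA RNA in 12 libraries, 3 in each of 4 groups. At 3 days in vitro (DIV) the cultures were infected with a lentivirus that expressed tdTomato from the CaMKIIα promoter (WT) or with one that expressed tdTomato and CRE (Top1 cKO). At DIV 15 they received 300 nM topotecan (Topot) or vehicle, 0.003% DMSO (Veh), for 3 days. The vehicle groups are named WT-Veh and Top1 cKO-Veh and the treated groups Top1 cKO-Topot and WT-Topot. The study's methods describe all 4 groups as Top1 fl/fl cultures, in which CRE removes exon 3 of Top1, while the sample labels name the tdTomato cultures wild-type; all cultures carried a lentivirus and tdTomato, and topotecan came in the same amount of DMSO. The CaMKIIα promoter limits CRE to neurons, so that non-neuronal cells and uninfected neurons kept Top1. Topotecan traps topoisomerase 1 on the DNA strand it has cut, as the TOP1 cleavage complex (TOP1cc), whereas the deletion removes the enzyme.

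The libraries held 1730164 to 4583777 counts. Levels are given as CPM, the counts of a gene relative to the TMM-scaled total of its library, and as RPKM (CPM per kb of exon) where genes are compared with each other. Top1 was at 117.0 to 163.5 CPM in the 6 tdTomato libraries and at 27.06 to 43.97 CPM in the 6 CRE libraries, without overlap. The 5 neuronal markers summed to 3185 to 4471 CPM (WT-Veh) and 2852 to 3287 CPM (WT-Topot). Over the 6 CRE libraries they summed to 3823 to 4788 CPM. In WT-Topot 1 of the 5 was called lower than in WT-Veh. With the replicate number as a block, a fit that compares libraries of the same number, 3 were called lower and 1 higher. The 1 called lower without the block and 2 of the 3 called lower with it are genes of over 100 kb. Long genes fell as a class with topotecan, as given below. Astrocyte markers were also present: the 7 summed to 1266 to 3276 CPM (WT-Veh), 618.0 to 1298 CPM after topotecan in WT, 624.3 to 1720 CPM in Top1 cKO-Topot, and 1305 to 3682 CPM where Top1 was deleted without the drug. In WT-Topot, 2 of the 7 were called lower than in WT-Veh, and 4 with the block. None of the 7 was at 0 in any library. The 4 interneuron markers summed to 748.1 to 1658 CPM in WT-Veh and 486.2 to 885.6 CPM in WT-Topot. None was called without the block, 3 of the 4 were called lower with it, and none was at 0. The 4 markers of excitatory neurons summed to 1243 to 1405 CPM in WT-Veh and 1629 to 1911 CPM in WT-Topot. Of these, 1 was called higher, and 3 with the block. Over all genes 2.04% were called lower and 0.682% higher in WT-Topot, and 5% and 3.24% with the block. Of the 6 endothelial and mural markers, Cldn5 was at 0 in 11 libraries. Rgs5 (5.152 to 31.48 CPM) and Pdgfrb (2.004 to 13.69 CPM) of the same list were at 0 in none. The part of these shifts in cell type markers in the results below was not tested, and fewer cells of a type and less RNA per cell cannot be told apart in such bulk libraries.

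The 10 genes differ widely in the stretch of genome they take up, which is given here as the span from the first to the last annotated exon base (mm9, GENCODE vM1). Dlg2 covers 1945 kb of chromosome 7 (97650473 to 99595513), of which 0.565% is exon. Dlgap1 covers 852.3 kb of chromosome 17 (70318413 to 71170753) and Dlgap2 751.8 kb of chromosome 8 (14095865 to 14847684). Shank2 covers 422.6 kb of chromosome 7 (151187833 to 151610399) and Dlg1 209.9 kb of chromosome 16 (31663529 to 31873436). The other 5 genes are far shorter. They are Dlgap3 (67.82 kb, chromosome 4, 126846448 to 126914266), Shank3 (60.64 kb, chromosome 15, 89330054 to 89390692), Dlg3 (50.69 kb, chromosome X, 97963061 to 98013749), Shank1 (48.1 kb, chromosome 7, 51565623 to 51613721) and Dlg4 (28.45 kb, chromosome 11, 69830587 to 69859034, 16.4% exon). All 10 are on the plus strand. Shank3 shares 271 exon bases with the lincRNA Gm15609 on the other strand, which has no row in the count table, so reads there could come from either gene. No other exon overlap with an annotated gene was found.

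Promoter sequence was taken from RefSeq (GRCm38.p6) as the 200 bases before an annotated start, which was given for 7 of the 10 genes in 16 windows. Windows are shown for Dlg2 and Dlgap1, which were called lower in both topotecan groups below, and for Shank3, a short gene that was also low in the 3 treated or deleted groups. Dlg2 has 3 starts, the second 971.6 kb and the third 1144 kb after the first, so that the transcripts differ in how much of the locus they cross. Dlgap1, Dlg1, Dlg3 and Dlg4 also have more than 1 start, and the second Dlgap1 window (chr17:70561547-70561746) is not shown. The count table sums all transcripts of a gene. Sequences run 5′ to 3′ on the plus strand, with every CG in capitals.
Dlg2, start 1 (chr7:91090586-91090785): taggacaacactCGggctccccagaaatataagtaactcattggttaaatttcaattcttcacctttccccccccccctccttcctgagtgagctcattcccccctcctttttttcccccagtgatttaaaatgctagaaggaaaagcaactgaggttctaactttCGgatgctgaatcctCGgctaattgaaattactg
Dlg2, start 2 (chr7:92062194-92062393): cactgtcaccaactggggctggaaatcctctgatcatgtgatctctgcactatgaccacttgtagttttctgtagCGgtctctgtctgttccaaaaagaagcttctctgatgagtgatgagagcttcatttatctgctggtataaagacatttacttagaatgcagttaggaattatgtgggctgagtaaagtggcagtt
Dlg2, start 3 (chr7:92234770-92234969): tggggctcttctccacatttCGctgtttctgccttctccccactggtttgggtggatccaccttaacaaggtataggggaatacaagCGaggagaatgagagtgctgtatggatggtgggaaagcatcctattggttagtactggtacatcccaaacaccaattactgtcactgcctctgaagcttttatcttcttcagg
Dlgap1, start 1 (chr17:69968873-69969072): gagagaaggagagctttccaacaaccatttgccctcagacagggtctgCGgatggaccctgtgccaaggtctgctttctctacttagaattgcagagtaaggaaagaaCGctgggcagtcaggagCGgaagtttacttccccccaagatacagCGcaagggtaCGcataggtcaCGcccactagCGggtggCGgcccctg
Shank3 (chr15:89499408-89499607): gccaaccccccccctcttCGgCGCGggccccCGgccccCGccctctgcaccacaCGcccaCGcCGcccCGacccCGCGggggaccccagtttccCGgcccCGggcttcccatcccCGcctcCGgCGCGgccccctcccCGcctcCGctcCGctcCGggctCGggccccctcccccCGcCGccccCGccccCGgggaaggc
The 3 Dlg2 windows hold 3, 1 and 2 CG dinucleotides and the Dlgap1 window shown holds 8, against a median of 5 over all 32851 RefSeq windows. The Shank3 window holds 26, and 94.7% of all windows hold fewer. It is 85% G and C and holds 4 copies of GGGCGG, the SP1 box, counted on both strands, each of which contains 1 of the marked CG. The box is found in 31% of all windows and in none of the Dlg2 windows or the Dlgap1 window shown. The second Dlg2 window holds TATAAA, counted on both strands, which 9.96% of all windows hold.

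In WT-Veh neurons Dlg4, which encodes PSD-95, the main DLG protein of mature excitatory synapses, had the highest level per length of the 10 genes, at 181.7 ± 29.74 RPKM (SD, n = 3). Dlg2 followed at 88.04 ± 11.86 RPKM and Dlgap3 at 56.02 ± 6.875 RPKM. The libraries of these 3 genes did not overlap with those of the next gene in the order. Shank3 (37.55 ± 1.374 RPKM), Dlg3 (33.72 ± 8.985), Shank1 (30.69 ± 6.604), Dlgap1 (26.53 ± 7.715), Dlg1 (26.37 ± 4.589) and Shank2 (22.94 ± 6.784) followed, and each overlapped with its neighbour. Dlgap2 was lowest, at 8.713 ± 4.605 RPKM. The replicates were not alike in level: in WT-Veh, replicate 2 had the highest CPM for 9 of the 10 genes, and in WT-Topot for 8 of the 10.

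**Figure D1:**
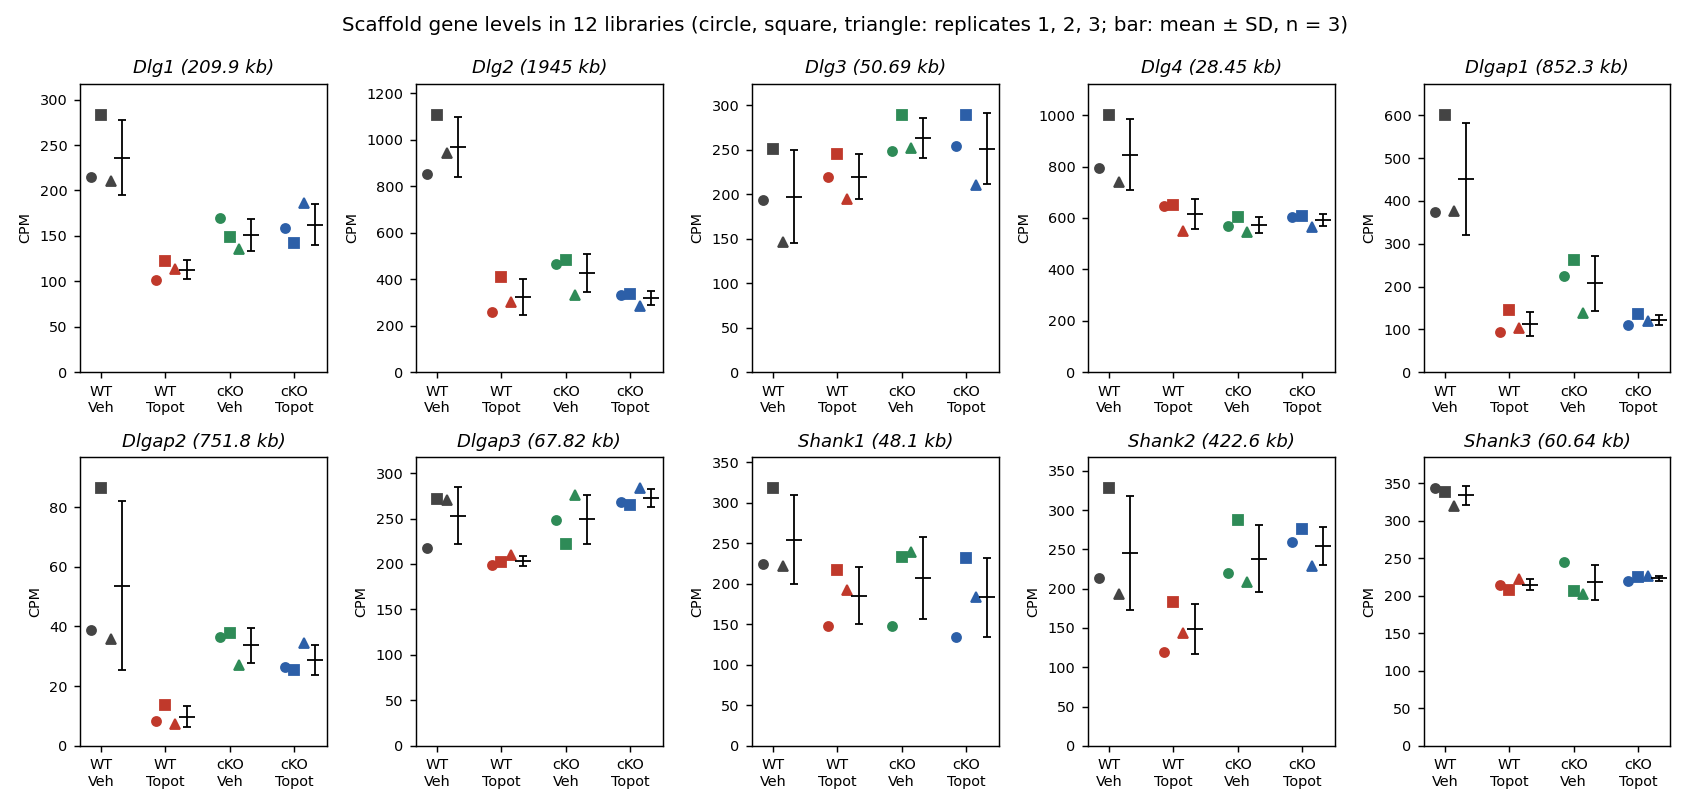
Level of each scaffold gene (vertical axis, CPM from 0) in the 12 libraries, by group; symbols are replicates 1, 2 and 3 and black bars the mean ± SD of 3. Dlg1, Dlg2, Dlg4, Dlgap1 and Shank3 lie below WT-Veh in all 3 other groups without overlap, while Dlg3 overlaps with WT-Veh in each of them.

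Topotecan in WT neurons lowered the RNA of 4 of the 10 scaffold genes, and these were 4 of the 5 longest. Dlg1, Dlg2, Dlgap1 and Dlgap2 fell (edgeR quasi-likelihood test, adjusted p under 0.01 over all genes). Over all genes 2.04% were called lower and 0.682% higher, and among genes of at least 1 CPM 3.56% were called lower. The WT-Topot libraries lay below all WT-Veh libraries for 9 of the 10 genes, which was so for 13.2% of genes of at least 1 CPM. No scaffold gene was called higher. The median log2 fold change of the 10 genes was -0.67, against 0.03 over all genes of at least 1 CPM.

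Of the DLG genes, Dlg2 changed most. Dlg2, which encodes PSD-93, was at 852.0, 1109 and 943.4 CPM in WT-Veh and at 259.7, 407.6 and 303.2 CPM in WT-Topot. Every treated library was far below every vehicle library, and the log2 fold change was -1.58 (SE 0.187, adjusted p = 1.59e-05), which leaves 33.5% of the vehicle level. Dlg1, which encodes SAP97, a partner of AMPA receptors on their way to the membrane, was at 214.8, 283.6 and 210.2 CPM in WT-Veh and at 101.9, 122.8 and 113.5 CPM in WT-Topot. Its groups did not overlap and its log2 fold change was -1.06 (SE 0.188, adjusted p = 0.0012). Dlg4 was at 793.2, 1003 and 741.8 CPM in WT-Veh and at 648.1, 651.2 and 549.4 CPM in WT-Topot. The groups did not overlap, but the log2 fold change of -0.45 (SE 0.167) missed the threshold (adjusted p = 0.18) and passed it with the replicate number as a block (adjusted p = 0.00046). Dlg3, which encodes SAP102, the DLG protein that prevails in young neurons, overlapped between the groups, at 193.7, 251.1 and 146.3 CPM in WT-Veh and 219.2, 244.4 and 194.0 CPM in WT-Topot (log2 fold change 0.16, 95% interval -0.26 to 0.57).

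Of the DLGAP genes, the long pair fell furthest of all 10 scaffold genes. Dlgap1, which encodes GKAP, was at 373.6, 602.2 and 376.7 CPM in WT-Veh and at 92.49, 144.3 and 101.9 CPM in WT-Topot. The groups again stood well apart, with a log2 fold change of -1.99 (SE 0.223, adjusted p = 8.05e-06) and 25.1% of the vehicle level left. Dlgap2, the least abundant scaffold gene, was at 38.91, 86.34 and 35.71 CPM in WT-Veh and at 8.378, 13.74 and 7.28 CPM in WT-Topot. The vehicle libraries spread more than 2-fold here, yet the groups did not overlap, and the log2 fold change was -2.42 (SE 0.345, adjusted p = 0.00013). Dlgap3 was at 217.4, 271.7 and 270.7 CPM in WT-Veh and at 198.4, 201.8 and 209.4 CPM in WT-Topot. Its groups were separate by a small step and its log2 fold change of -0.31 (95% interval -0.68 to 0.05) did not pass the test in either fit (adjusted p = 0.52, and 0.11 with the block).

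None of the SHANK genes passed the threshold in the fit of the 6 libraries without the block, and all 3 passed it with the block. Shank3, the most abundant of them per length, was at 343.5, 338.4 and 320.2 CPM in WT-Veh and at 214.1, 207.5 and 222.7 CPM in WT-Topot. The replicates were close to each other in both groups, the groups were well apart, and the log2 fold change was -0.63 (SE 0.165, adjusted p = 0.030, with the block 1.36e-05). Shank3 was also called lower without the block by the DESeq2 Wald test (adjusted p = 0.00085) and when all 12 libraries were fitted together in edgeR (adjusted p = 0.0090). Shank2 was at 213.6, 327.8 and 193.5 CPM in WT-Veh and at 120.0, 183.2 and 143.0 CPM in WT-Topot. Its groups were close but did not overlap, with a log2 fold change of -0.72 (SE 0.217, adjusted p = 0.071, with the block 6.41e-06, without WT-Veh replicate 3 0.0038). Shank1 was at 224.1, 317.8 and 221.7 CPM in WT-Veh and at 147.4, 216.7 and 192.3 CPM in WT-Topot. It differed least of the 3 (log2 fold change -0.45, SE 0.199, adjusted p = 0.31, with the block 0.0054). With the block, 8 of the 10 genes were thus called lower, beside 5% of all genes and 8.71% of those of at least 1 CPM.

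Dlg2 fell with the deletion of Top1. It was the only scaffold gene called in Top1 cKO-Veh against WT-Veh, beside 0.126% of all genes called lower and 0.046% higher. Dlg2 was at 463.4, 481.1 and 331.2 CPM in Top1 cKO-Veh, all 3 below the WT-Veh libraries, with a log2 fold change of -1.19 (SE 0.183, adjusted p = 0.0069). This call was lost without WT-Veh replicate 2 (adjusted p = 0.036) or Top1 cKO-Veh replicate 2 (adjusted p = 0.016), and where genes of low count were left out (adjusted p = 0.025). For 5 of the 10 genes the Top1 cKO-Veh libraries lay below those of WT-Veh without overlap, which was so for 10.3% of genes of at least 1 CPM. With the block, these 5 genes were called lower, beside 2.95% of all genes, and 1 gene, Dlg3, was called higher, beside 2.6% of all genes.

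The other 4 genes without overlap were Dlg1, Dlg4, Dlgap1 and Shank3. Dlgap1 was at 223.7, 261.7 and 137.3 CPM in Top1 cKO-Veh, the widest spread of the 4, and its log2 fold change was -1.12 (SE 0.242, adjusted p = 0.049, with the block 2.68e-20). Dlg1 was at 169.3, 148.2 and 135.3 CPM (log2 fold change -0.64, adjusted p = 0.17, with the block 1.12e-05). Shank3 was at 245.2, 206.3 and 202.4 CPM (log2 fold change -0.61, adjusted p = 0.13, with the block 4.57e-06). Dlg4 was at 569.8, 603.9 and 543.6 CPM, all below the lowest WT-Veh library (log2 fold change -0.56, adjusted p = 0.18, with the block 1.25e-06). These 4 genes differ in span, from 28.45 kb to 852.3 kb.

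Dlg3 was at 248.3, 289.2 and 252.0 CPM in Top1 cKO-Veh, where 2 libraries lay above and 1 within the range of WT-Veh. Its log2 fold change was 0.42 (95% interval -0.01 to 0.84, adjusted p = 0.59), and it was 0.44 with the block (adjusted p = 0.0053). Dlgap2 (log2 fold change -0.66, 95% interval -1.32 to -0.01) and Shank1 (-0.30, -0.75 to 0.15) overlapped between the groups and passed in neither fit, and Dlgap2 was at -0.14 without WT-Veh replicate 2. Shank2 (-0.04, 95% interval -0.49 to 0.41) and Dlgap3 (-0.02, -0.40 to 0.35) had the smallest differences, and changes within these intervals were not detectable here.

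In Top1 cKO-Topot, which combines deletion and drug, Dlg2 and Dlgap1 were called lower than in WT-Veh, beside 1.21% of all genes. Dlg2 was at 332.6, 337.1 and 285.9 CPM (log2 fold change -1.58, SE 0.172, adjusted p = 7.12e-06). Dlgap1 was at 110.3, 134.8 and 118.9 CPM (log2 fold change -1.87, SE 0.209, adjusted p = 9.81e-06). For both genes every library was far below those of WT-Veh, and for 6 of the 10 genes the groups did not overlap, as for 14.4% of genes of at least 1 CPM. With the block, Dlg1 (-0.52, adjusted p = 0.0094), Dlg4 (-0.48, adjusted p = 0.0010) and Shank3 (-0.56, adjusted p = 0.00092) were called as well, beside 4.02% of all genes, and the DESeq2 Wald test called Shank3 without the block (adjusted p = 0.0083). Dlgap2 was at 26.29, 25.57 and 34.54 CPM, just below the WT-Veh libraries, and passed in neither fit (log2 fold change -0.88, SE 0.302, adjusted p = 0.13, with the block 0.012). Without WT-Veh replicate 2, its highest vehicle library at 86.34 CPM, the value was -0.36, and without WT-Veh replicate 3 it was -1.09 and passed (adjusted p = 0.0030). The 3 comparisons with WT-Veh share its 3 libraries, so they are given side by side and not counted as separate support for each other.

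**Figure D2:**
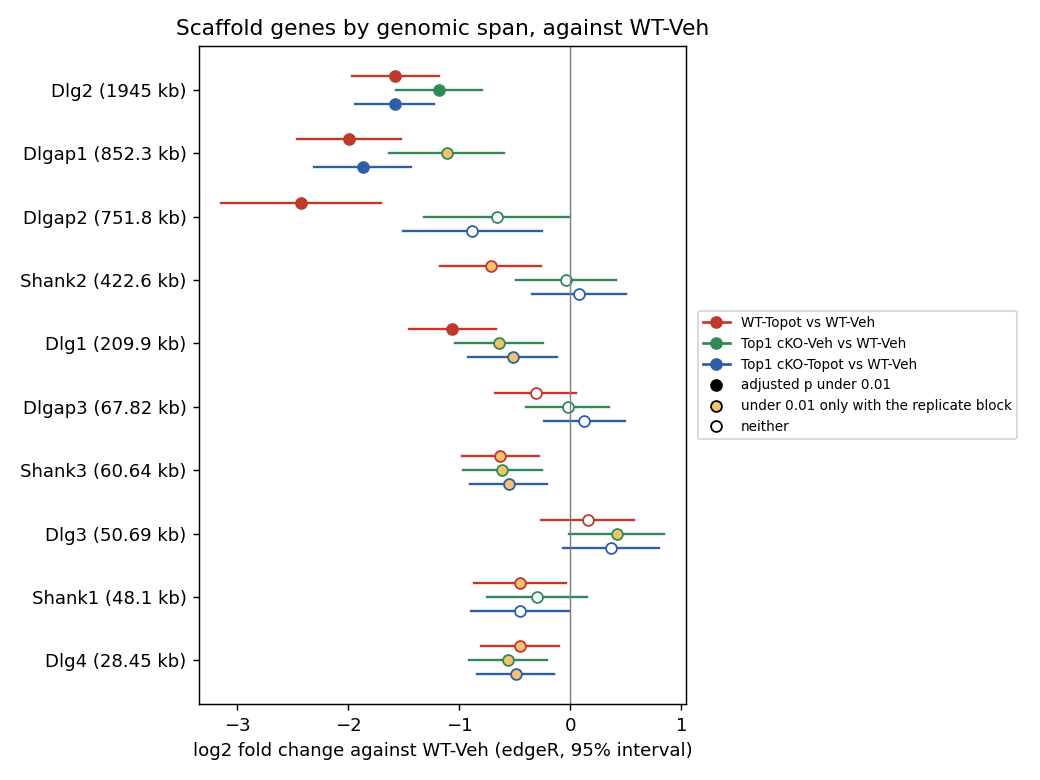
Log2 fold change of each scaffold gene against WT-Veh (horizontal axis, edgeR estimate with its 95% interval), ordered by genomic span with the longest gene on top; red is WT-Topot, green Top1 cKO-Veh and blue Top1 cKO-Topot. Points filled in the group's colour passed an adjusted p of 0.01, yellow points passed only with the replicate number as a block and open points in neither fit; Dlgap2 is at -2.42 in WT-Topot and at -0.66 and -0.88 in the deleted groups (-0.14 and -0.36 without WT-Veh replicate 2).

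Within the deleted neurons topotecan left all 10 genes uncalled. No scaffold gene passed in Top1 cKO-Topot against Top1 cKO-Veh by edgeR's quasi-likelihood test, its exact test or the DESeq2 Wald test, and 0.00837% of all genes were called lower. At an unadjusted p under 0.05, 2 of the 10 were lower and none higher, beside 2.62% and 1.69% of all genes. These 2 genes were Dlgap1 (log2 fold change -0.77, SE 0.210, adjusted p = 0.38) and Dlg2 (-0.41, SE 0.170, adjusted p = 1), and both passed with the block (adjusted p = 7.53e-09 and 0.00043), beside 1.74% of all genes. Dlgap1 was the only scaffold gene whose libraries did not overlap between these groups (lower without overlap for 6.56% of genes of at least 1 CPM). Its log2 differences between libraries of the same replicate number were -1.02, -0.96 and -0.21. Dlg2 and Shank1 were likewise lower after topotecan in 3 of 3 such pairs. Of the other genes, Dlg4 had a log2 difference of 0.06 (95% interval -0.24 to 0.36) and Shank3 of 0.05 (-0.28 to 0.38). Dlg1 was at 0.11 (-0.25 to 0.48), Shank2 at 0.11 (-0.25 to 0.46) and Dlgap3 at 0.14 (-0.19 to 0.47). Below 0 were Dlgap2 at -0.23 (-0.74 to 0.28), Shank1 at -0.16 (-0.62 to 0.30) and Dlg3 at -0.06 (-0.41 to 0.29).

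Whether topotecan acted unequally on deleted and WT neurons was tested as an interaction over all 12 libraries. No scaffold gene passed an adjusted p of 0.01 in edgeR's quasi-likelihood test, beside 0.398% of all genes called higher and 0.0377% lower. At an unadjusted p under 0.05, 8 of the 10 had a positive value, that is, a log2 difference between topotecan and vehicle that lay higher in the deleted neurons, and none a negative one, beside 4.57% and 3.65% of all genes. Dlgap2 (log2 value 2.18, SE 0.449, adjusted p = 0.015), Dlg1 (1.17, SE 0.244, adjusted p = 0.016) and Dlg2 (1.16, SE 0.257, adjusted p = 0.024) were nearest to the threshold. The DESeq2 Wald test called 4 genes, Dlg1, Dlg2, Dlgap2 and Shank3. With the block 7 genes passed, beside 2.44% of all genes. All 7 were higher in 3 of 3 replicate numbers, as was Dlgap3, which did not pass. The blocked fit rests on these same differences, so their signs are no separate support. Dlgap1, at 1.22 (SE 0.328, adjusted p = 0.083), Shank2, at 0.81 (SE 0.289, adjusted p = 0.28), Shank3, at 0.68 (SE 0.203, adjusted p = 0.14), and Dlg4, at 0.51 (SE 0.206, adjusted p = 0.42), were among these 7. The interaction was not called in either fit for Dlg3, Dlgap3 and Shank1.

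**Figure D3:**
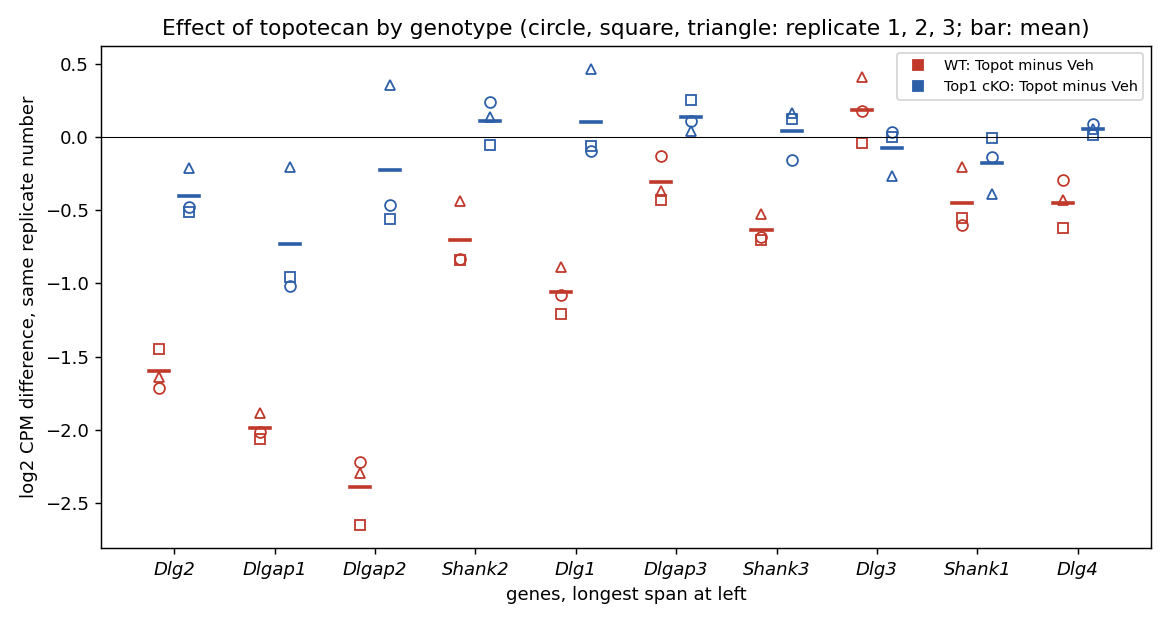
Log2 CPM difference between topotecan and vehicle libraries of the same replicate number (vertical axis) for each scaffold gene, longest span at left; red is WT, blue Top1 cKO, symbols are replicates 1, 2 and 3 and bars their mean. In WT, Dlgap2 differs by -2.22, -2.65 and -2.29, and in Top1 cKO by -0.47, -0.56 and 0.35.

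Compared directly, the groups that received topotecan differed in 2 scaffold genes. Dlgap2 and Shank2 were called higher in Top1 cKO-Topot, with WT-Topot as the reference, beside 1.46% of all genes called higher. Dlgap2 was at 25.57 to 34.54 CPM against 7.28 to 13.74 CPM, with a log2 fold change of 1.52 (SE 0.297, adjusted p = 0.0023). Shank2 was at 258.9, 276.6 and 228.6 CPM against 120.0, 183.2 and 143.0 CPM, with a log2 fold change of 0.77 (SE 0.178, adjusted p = 0.0090). The groups did not overlap for either gene. The Shank2 call was lost in 4 of the 6 fits that left out a library, those without WT-Topot replicate 1 (adjusted p = 0.050), WT-Topot replicate 3 (0.018), Top1 cKO-Topot replicate 1 (0.014) or Top1 cKO-Topot replicate 2 (0.048), and where genes of low count were left out (0.015). Neither gene passed when all 12 libraries were fitted together (adjusted p = 0.011 for Dlgap2 and 0.036 for Shank2). With the block Dlg1 (0.51, adjusted p = 0.0021) and Dlgap3 (0.42, adjusted p = 0.0033) were also called higher, beside 4.6% of all genes. Dlg2 (-0.03, 95% interval -0.38 to 0.33) and Dlgap1 (0.10, -0.29 to 0.49), which fell in both groups against WT-Veh, did not differ detectably between them.

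Between the drug alone and the deletion alone, 1 gene passed the test. Dlgap2 was lower in WT-Topot, at 7.28 to 13.74 CPM against 27.06 to 37.78 CPM in Top1 cKO-Veh (log2 fold change -1.77, SE 0.288, adjusted p = 0.0015), beside 1.23% of all genes called lower. With the block, 3 more genes were called lower, beside 4.8% of all genes: Dlgap1 (-0.87, adjusted p = 1.37e-06, without the block 0.039), Shank2 (-0.69, adjusted p = 6.46e-06, without 0.060) and Dlg2 (-0.40, adjusted p = 0.0059, without 0.42). The call of Dlgap1 also appeared without WT-Topot replicate 2 or without Top1 cKO-Veh replicate 3, and that of Shank2 without Top1 cKO-Veh replicate 3. Shank3 (-0.02, 95% interval -0.36 to 0.31) and Dlg4 (0.11, -0.20 to 0.41) were close in these groups.

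The genomic span of a gene moved with its change. Over all genes of at least 1 CPM with a known span, the median log2 fold change in WT-Topot against WT-Veh was 0.10 for spans up to 50 kb, -0.01 for over 50 to 100 kb, -0.21 for over 100 to 200 kb, -0.85 for over 200 to 500 kb and -2.11 for over 500 kb. In the longest class 64.4% of 180 genes were called lower. Read against these classes, the long scaffold genes were ordinary members: Dlgap2 (-2.42) was below the class median and Dlgap1 (-1.99) and Dlg2 (-1.58) above it, and all 3 lay within the middle of the class, with 38.9%, 55.6% and 65.6% of its genes below them. Dlg1 had 38.8% and Shank2 56.9% of the genes of their class below them. Of the 5 short scaffold genes, 4 stood lower in theirs, and Dlg3 stood above its class median. Of the 1910 genes of over 50 to 100 kb, 8.8% were below Shank3, 23.2% below Dlgap3 and 65.6% below Dlg3, and of the 9434 genes up to 50 kb, 12% were below Dlg4 and 12% below Shank1. Over the 10 genes, log2 span and log2 fold change had r = -0.83 and rho = -0.79 (n = 10 genes in the same 6 libraries).

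In Top1 cKO-Veh against WT-Veh the class medians ran from 0.00 for spans up to 50 kb to -0.57 for over 500 kb. Dlg2 (-1.19) and Dlgap1 (-1.12) were lower than most genes of their class, with 13.3% and 17.2% of its 180 genes below them, and Dlgap2 (-0.66) was near its median, with 46.1% below. Dlg1 had 16.7% of its class below it, while Shank2, in the same class, had 56%. Dlg4 (11.3%) and Shank3 (8.38%) again stood low among genes of their own span, and Dlg3 stood high (83.8%). Over the 10 genes r was -0.62 and rho -0.67. These places within classes are descriptions with no test.

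**Figure D4:**
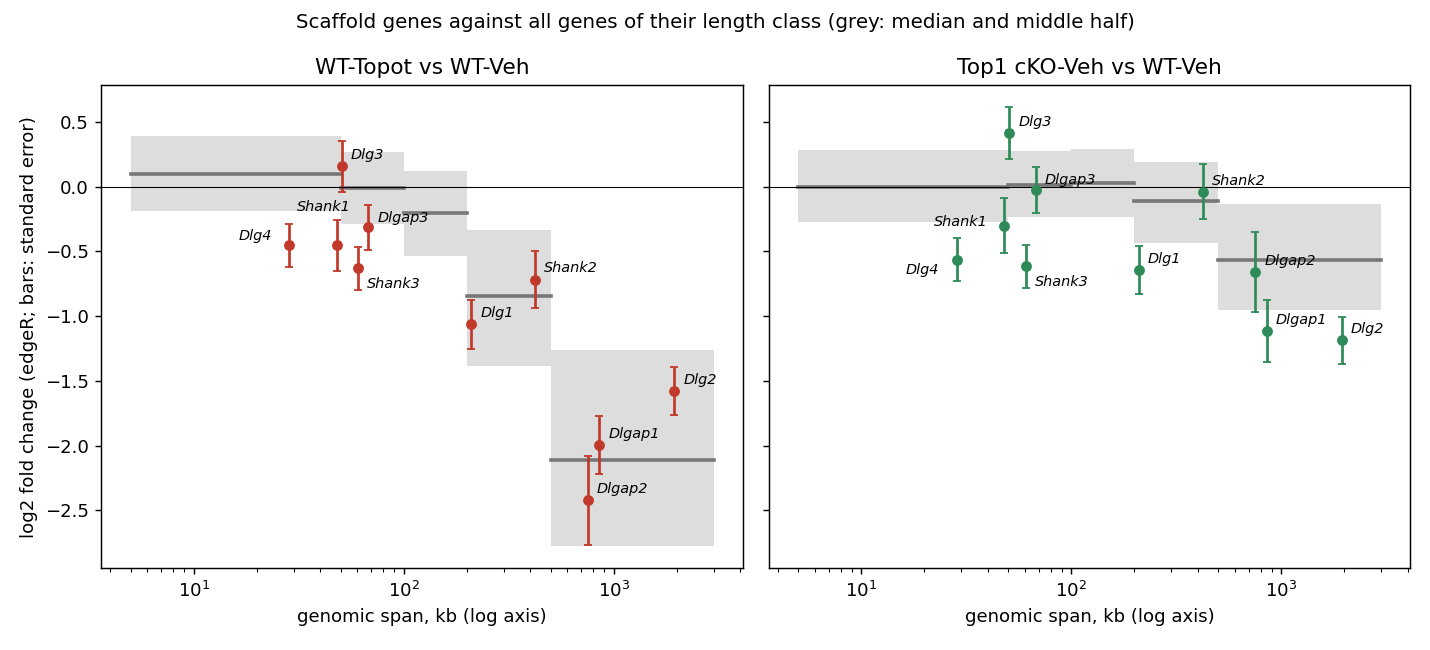
Log2 fold change (vertical axis, with standard error) against genomic span (horizontal log axis, kb) of the 10 scaffold genes, in WT-Topot (left) and Top1 cKO-Veh (right) against WT-Veh; grey bands give the middle of all genes of a length class (25th to 75th percentile) with the median as a line, and the outer ends of the outermost bands are open. On the left, Dlg2, Dlgap1 and Dlgap2 lie within the band of the longest class, and Dlg4, Shank1, Shank3 and Dlgap3 lie below theirs. On the right, Dlg4, Shank1, Shank3, Dlg1, Dlg2 and Dlgap1 lie below the bands of their classes and Dlg3 lies above.

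Paralogs changed unequally, and the shares of the 4 Dlg and the 3 Dlgap scaffold genes in their sums differed between the groups. These sums leave out the paralogs Dlg5 and Dlgap4, which had means of 61.42 and 312 CPM over the 12 libraries, so they do not describe the whole families. The summed level of the 4 Dlg genes was 330.0 ± 53.2 RPKM in WT-Veh, 212 ± 20.5 RPKM in WT-Topot, 217 ± 11.9 RPKM in Top1 cKO-Topot and 223 ± 17.3 RPKM in Top1 cKO-Veh (SD, n = 3 each), and the WT-Veh libraries lay above all others. Dlg2 held 25.4 to 29.2% of this sum in WT-Veh, 11.2 to 15.9% in WT-Topot, 12.7 to 13.7% in Top1 cKO-Topot and 14.7 to 18.7% in Top1 cKO-Veh. Dlg3 held 10.1 ± 1.4% in WT-Veh and 17.3 to 21.8% in the 9 other libraries. Per length, the pair thus changed places in order, Dlg2 above Dlg3 in each WT-Veh library and the mean of Dlg3 above that of Dlg2 in the other 3 groups. In shares of counts, which are not divided by exon length, Dlg2 stayed above Dlg3 in every group, with 25.3 ± 3.82% against 17.2 ± 0.557% in WT-Topot and 43.2 ± 2.61% against 8.7 ± 1.32% in WT-Veh. Dlg4 held 54.2 to 65.8% of the sum over the 12 libraries, with 55.1 ± 0.8% in WT-Veh and 62.5 ± 2.91% in WT-Topot.

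Of the summed level of Dlgap1, Dlgap2 and Dlgap3, without Dlgap4, Dlgap3 held 54.9 to 68.2% in WT-Veh and 80.6 to 86.6% in WT-Topot. It held 82.9 to 84.7% in Top1 cKO-Topot and 69.5 to 83.0% in Top1 cKO-Veh. Dlgap1 held 28.8 ± 3.55% in WT-Veh and 12.4 ± 2.52% in WT-Topot. In shares of counts, Dlgap1 was above Dlgap3 in WT-Veh, with 59 ± 3.81% against 34.1 ± 5.66%. In WT-Topot it was below, with 34.3 ± 5.02% against 62.7 ± 5.72%. The SHANK genes kept more even shares. Shank3 held 41.7 ± 5.38% of their sum in WT-Veh and 40.3 ± 5.16% in WT-Topot, and Shank2 24.8 ± 3.39% and 22.9 ± 2.47%. In Top1 cKO-Topot, Shank2 held 31.0 to 37.2%, above its range of 22.4 to 28.7% in WT-Veh. The sum of the SHANK genes was 91.2 ± 14.0 RPKM in WT-Veh and 60.4 ± 6.84 RPKM in WT-Topot.

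**Figure D5:**
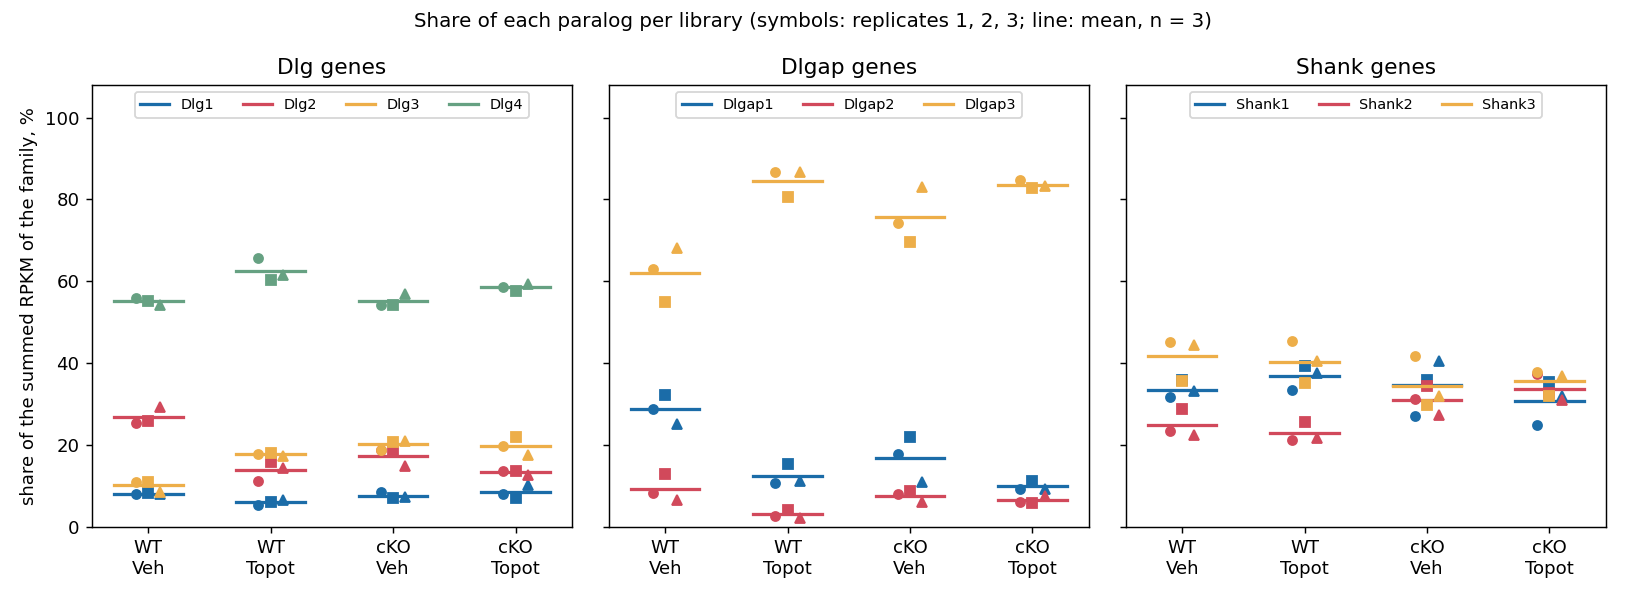
Share of each paralog in the summed RPKM of the Dlg, Dlgap or Shank genes among the 10 scaffold genes (vertical axis, percent) in the 12 libraries. Dlg5 and Dlgap4 are not in the sums. Symbols are replicates 1, 2 and 3 and lines the mean of 3. Dlg2 drops from 25.4 to 29.2% in WT-Veh to at most 18.7% in the other groups, and Dlgap3 is at 80.6% or more in all topotecan libraries.

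Of 40 other genes of the excitatory postsynaptic density, 7 were called lower and none higher in WT-Topot against WT-Veh, beside 2.04% and 0.682% of all genes. The fit with the block called 15 lower and 3 higher, beside 5% and 3.24%. Among the 15 was Dlgap4, the paralog of Dlgap1 to Dlgap3 (log2 fold change -0.54, adjusted p = 0.14, with the block 0.00062). The list's median log2 fold change was -0.23, against 0.03 over all genes of at least 1 CPM, and 21 of the 40 genes span over 100 kb, among them all 7 that fell. Lrrc7, which encodes densin-180, fell furthest (log2 fold change -2.69, SE 0.293, adjusted p = 5.80e-06, 479.3 kb), with 59.9 to 88.1 CPM in WT-Veh and 6.032 to 15.46 CPM after the drug. Kalrn, which encodes kalirin, an activator of Rac1 in spines, went from 230.3 to 308.6 CPM in the vehicle group down to 68.09 to 82.43 CPM (log2 fold change -1.88, SE 0.191, adjusted p = 2.60e-06). Magi2, whose product S-SCAM binds DLGAP proteins (-2.16, adjusted p = 5.18e-05), and Cnksr2, whose product binds PSD-95 (-1.86, adjusted p = 8.11e-05), fell as well. Tanc2 (-1.40, adjusted p = 0.00016) and Cask (-1.36, adjusted p = 0.00092), which encodes a scaffold kinase of the same MAGUK family as the DLG proteins, also fell. Homer2, which encodes a Homer protein (0.79, adjusted p = 0.011, with the block 1.22e-06), Baiap2, which encodes the SHANK partner IRSp53 (0.66, adjusted p = 0.059, with the block 0.00010) and Dlg5 (0.62, adjusted p = 0.15, with the block 0.0032) were called higher with the block only. Homer2 was at 104.7 to 125.0 CPM in WT-Veh and at 183.3 to 216.1 CPM in WT-Topot, without overlap.

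In Top1 cKO-Veh none of the 40 partner genes was called by edgeR's quasi-likelihood test, beside 0.126% of all genes lower and 0.046% higher. At an unadjusted p under 0.05, 7 were lower and 4 higher, beside 4.82% and 3.9%, and the fit with the block called 6 lower and 5 higher, beside 2.95% and 2.6%. In Top1 cKO-Topot against WT-Veh 5 were lower and 1 higher, beside 1.21% and 0.473%. For contrast, 8 genes of inhibitory postsynaptic sites were counted, of which 2, Magi2 and Iqsec3, are also in the list of 40. In WT-Topot 2 of the 8 were called lower, beside 2.04% of all genes, Gphn, which encodes gephyrin, the main scaffold of inhibitory synapses (80.46 to 97.74 CPM with vehicle, 16.76 to 22.33 CPM with the drug, log2 fold change -2.18, SE 0.222, adjusted p = 2.76e-06), and Magi2. Iqsec3 (log2 fold change -0.59, adjusted p = 0.17, with the block 0.0020) was called lower with the block only. Gphn spans 458.1 kb and Magi2 1478 kb.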

How the data were processed

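Neuronal RNA was sequenced from 12 cultures. The authors cleaned the paired-end reads (TagDust), aligned to mm9 (TopHat), removed rRNA reads and deposited raw counts over RefSeq exons per gene symbol; the counting program, its use of strand and the versions are not given in the sources used here. Groups came from the sample labels. Members and gene lists were chosen with earlier results of these data known. From the counts, CPM with TMM scaling and edgeR 4.0.16 quasi-likelihood tests (glmQLFit, glmQLFTest; R 4.3.3) were computed on the 6 libraries of each comparison, or all 12 for the interaction, without a filter, with Benjamini-Hochberg adjustment over 23893 genes and a threshold of 0.01. SE is the log2 fold change divided by the square root of F. RPKM used GENCODE vM1 exon lengths. The code was tested on simulated data. Without replicate effects, the fits without and with the block each recovered 73 of 100 changes of 1 log2 unit, with 1 and 3 false calls. Replicate effects of a set size, not estimated from these data, were then added. With them, the fit without the block recovered 0 of 100 changes of 1 log2 unit. In the data this fit did call a change of about that size, Dlg1 at -1.06 in WT-Topot against WT-Veh. The fit with the block recovered 76 of these. Of 100 changes of 2 log2 units, 86 were recovered without the block and 96 with it, and the false calls were 0 and 3. A gene not called without the block can thus still have changed.

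The labels number the cultures of every group 1 to 3. Deviations from group means over 13720 genes correlated at 0.261 to 0.485 between the 18 library pairs that share a number. Between the 36 other pairs they correlated at -0.384 to -0.0494. The numbers were thus taken as pairs, and the blocked fit is printed beside a result whose call it alters. No source says what a number stands for. The edgeR p-values weigh a change against a spread between cultures that is estimated in part over all genes, not from the gene alone. Very small adjusted p-values with the block still rest on 3 cultures per group. Dlgap4 is named as a paralog of the scaffold genes. The other partner genes were named where they passed the threshold in WT-Topot against WT-Veh in either fit, at most 6 in each direction by p. For 1 gene that met this rule the result is not reported here. Libraries of 1730164 to 4583777 counts limit what low genes such as Dlgap2 can show. Alternatives were RLE size factors, filterByExpr, edgeR's exact test, the DESeq2 1.42.0 Wald test, all 12 libraries in 1 fit, a threshold of 0.05 and leaving out each library. No 2 libraries were repeats of each other (dispersion index 6.44 to 10.9, where sampling noise gives about 1).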

Additional observations from a re-analysis of the deposited data

Results flagged for a closer look

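For 7 scaffold genes the effect of topotecan differed between deleted and WT neurons when the replicate number was a block (interaction over 12 libraries, edgeR quasi-likelihood test, adjusted over all genes). In this fit 2.44% of all genes were called higher. Among genes of at least 1 CPM, 46.1% of those over 500 kb and 28% of those over 200 to 500 kb were called higher. The share was 3.14% for over 50 to 100 kb and 1.69% for up to 50 kb. The log2 values, with their adjusted p, were 1.17 for Dlg1 (7.95e-06), 1.18 for Dlg2 (1.06e-07), 0.50 for Dlg4 (0.0061), 1.23 for Dlgap1 (2.04e-06), 2.18 for Dlgap2 (4.68e-06), 0.82 for Shank2 (0.00037) and 0.68 for Shank3 (0.0015). All 7 values were positive in 3 of 3 replicate numbers, that is, the log2 difference between topotecan and vehicle lay higher in Top1 cKO than in WT. This was also so for Dlgap3, which was not called, and the signs are no support apart from the blocked fit, which uses the same differences. In the same test without the block none of the 7 passed, with adjusted p from 0.015 for Dlgap2 to 0.42 for Dlg4, while the DESeq2 Wald test without the block called Dlg1, Dlg2, Dlgap2 and Shank3, and fits that left out 1 library called Dlgap2 in 3 cases and Dlg2 in 1. For Dlgap2 the range of the value over all alternatives was 1.66 to 2.52.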

How the results depend on the processing

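The block made the largest difference. With it, the scaffold genes called lower went from 4 to 8 (WT-Topot against WT-Veh), 1 to 5 (Top1 cKO-Veh against WT-Veh, with 1 higher), 2 to 5 (Top1 cKO-Topot against WT-Veh), 0 to 2 (topotecan within Top1 cKO) and 1 to 4 (WT-Topot against Top1 cKO-Veh), and those called higher from 2 to 4 (Top1 cKO-Topot against WT-Topot) and 0 to 7 (interaction). Among all genes, lower calls rose from 2.04 to 5%, 0.126 to 2.95%, 1.21 to 4.02%, 0.00837 to 1.74% and 1.23 to 4.8%. Higher calls rose from 1.46 to 4.6% and 0.398 to 2.44% in the last 2 of these comparisons. Partner genes with the block, lower and higher in the same order of comparisons, were 15 and 3, 6 and 5, 7 and 7, 6 and 0, 15 and 2, 1 and 14, and 1 and 11. Inhibitory genes were 4 and 0, 2 and 1, 2 and 1, 2 and 0, 4 and 0, 0 and 2, and 0 and 3. All genes were at 5 and 3.24%, 2.95 and 2.6%, 4.02 and 3.34%, 1.74 and 0.858%, 4.8 and 2.93%, 4.08 and 4.6%, and 1.53 and 2.44%. The block turned no direction. Of the other alternatives, filterByExpr gave 0 lower in Top1 cKO-Veh against WT-Veh and 1 higher in Top1 cKO-Topot against WT-Topot, where all 12 libraries in 1 fit gave 0. The DESeq2 Wald test gave 2, 2 and 4 and a threshold of 0.05 gave 2, 2 and 3 (Top1 cKO-Veh against WT-Veh, WT-Topot against Top1 cKO-Veh, interaction). Shank3 was also gained by the Wald test in WT-Topot (5 lower) and Top1 cKO-Topot (3 lower) and by 1 fit of all 12 libraries in WT-Topot (5 lower), each against WT-Veh. The cause was not tested. Leaving out 1 library gave 0 to 2 lower in Top1 cKO-Veh against WT-Veh, 0 to 1 in Top1 cKO-Topot against Top1 cKO-Veh, 1 to 3 in WT-Topot against Top1 cKO-Veh, 1 to 2 higher in Top1 cKO-Topot against WT-Topot and 0 to 2 in the interaction. Without WT-Veh replicate 3, Dlgap1 in Top1 cKO-Veh (adjusted p = 0.0077), Shank2 in WT-Topot (0.0038) and Dlgap2 in Top1 cKO-Topot (0.0030) were called against WT-Veh, and without Top1 cKO-Veh replicate 3, Dlgap1 in Top1 cKO-Topot against it (0.00048). The interaction was called for Dlgap2 without WT-Veh replicate 1 or 3, and for Dlgap2 and Dlg2 without WT-Topot replicate 2. Over 400 values of the scaffold genes under alternatives that kept all libraries, 0 changed sign; of 480 that left out a library, 23 did, none of them called. The 4 falls in WT-Topot kept their calls in every fit. RLE factors moved the median of all genes by at most 0.031. Depth limits Dlgap2 most, with as few as 17 counts.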
